A study of Ovis aries with 44 samples.

Results

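The maternal heterozygous genotype (Cmat/+) was compared with the normal genotype (+/+) in the semimembranosus, a large muscle of the hind leg, of lambs at 30 d of age. The members were the arrays labelled as 30 d muscle of Cmat/+ (3 lambs) and of +/+ (2 lambs), 5 of the 22 lambs of the series. The difference Cmat/+ minus +/+ was taken for all 24016 probe sets of the array, after 112 of 24128 had been left out as controls. A probe set is a group of short probes designed on 1 transcript, and 3 of the 24016 passed the test, all of them probe sets for MEG3 and all higher in Cmat/+ lambs.

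Each lamb had 1 bovine Affymetrix array. The rest of the series was 2 callipyge (+/Cpat) and 3 homozygous (C/C) lambs at 30 d, and 2 +/+ and 2 +/Cpat lambs at each of 10, 20 and 80 d. The Cmat/+ lambs carried the callipyge mutation on the chromosome from the dam only, the +/Cpat lambs on the chromosome from the sire only, the C/C lambs on both, and the +/+ lambs on neither. The lambs at 30 d were kept indoors and still nursed their dams. The labels give neither the sex nor the sire of a lamb. By the methods of the study, the Cmat/+ and C/C arrays were compared with +/+ and +/Cpat arrays that had already been obtained. The methods give no date of hybridization. A separate round, if there was one, cannot be told apart from the maternal allele in this comparison. The RNA was that of whole muscle, and 13 of 13 measured markers of striated muscle, such as ACTA1 (skeletal actin) and CKM (muscle creatine kinase), lay above the median of the array in all 10 lambs at 30 d.

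The callipyge mutation lies in the DLK1-DIO3 imprinted domain, between DLK1 and MEG3. DLK1, RTL1 and DIO3 of this domain code for proteins and are expressed from the paternal chromosome, whereas MEG3, MEG8 and other long RNAs that are not translated are expressed from the maternal chromosome. The mutation acts on the chromosome that carries it and raises the genes expressed from that chromosome in muscle, and the muscular callipyge phenotype appears only in +/Cpat lambs, an inheritance known as polar overdominance. A Cmat/+ lamb is therefore a carrier with normal muscling, and the comparison asks which transcripts accompany the maternal allele when the paternal allele is normal.

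All levels below are RMA values, on a log2 scale, so that a difference of 1 is a doubling. The probes were designed on cattle sequence and read sheep RNA, so levels of different probe sets are not set against each other. P-values are from limma over the 10 arrays at 30 d, adjusted over all 24016 probe sets, with 0.1 as the threshold, and they measure the spread between these lambs. An exact two-sided permutation test of 3 against 2 lambs cannot give a p below 0.2 and was not used.

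The lowest correlation of any 30 d array with another was 0.982, and the median MAS5 intensity ranged from 17.3 to 24 among the 10 arrays. Cmat/+ lamb 2 stood apart from the other arrays on the first principal component of the 30 d values (35.4, against -18.85 to 15.33). Cmat/+ lamb 3 stood apart from its group by its level of DLK1 and of other transcripts known from callipyge muscle. Of 24 probe sets that the study verified as changed in +/Cpat muscle, the number nearer to the +/Cpat mean than to the +/+ mean at 30 d was 3, 3 and 7 in the 3 Cmat/+ lambs, 1 and 1 in the +/+ lambs, 7, 6 and 10 in the C/C lambs and 24 and 24 in the +/Cpat lambs. Since the +/+ and +/Cpat lambs themselves set these means, their own counts are a description. Cmat/+ lamb 3, by its label, was thus the Cmat/+ lamb with the most callipyge-like values, while its MEG3 level, 12.44, lay between those of the other Cmat/+ lambs. Whether its label holds was not tested beyond these values.

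Among 24016 probe sets, 3 were called (0.0125%), 3 higher and 0 lower in Cmat/+ lambs. At an unadjusted p under 0.05 there were 543 higher probe sets (2.26%) and 682 lower (2.84%), 1225 together (5.10%). In 2405 probe sets all 3 Cmat/+ lambs lay above both +/+ lambs (10.0%), and in 2322 they all lay below (9.67%), so that the groups did not overlap in 4727 (19.7%). The median difference of all probe sets was 0.0079, with quartiles of -0.105 and 0.112. The median standard error was 0.146, and the 95% interval of the difference lay within 1 log2 unit of 0 for 23415 probe sets (97.5%) and within 0.5 for 15333 (63.8%). The lambs thus bounded nearly all differences of RMA readings at 1, and fewer of them at 0.5. Dim probe sets are among these, and for them a narrow interval bounds the reading and not the transcript.

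**Figure D1:**
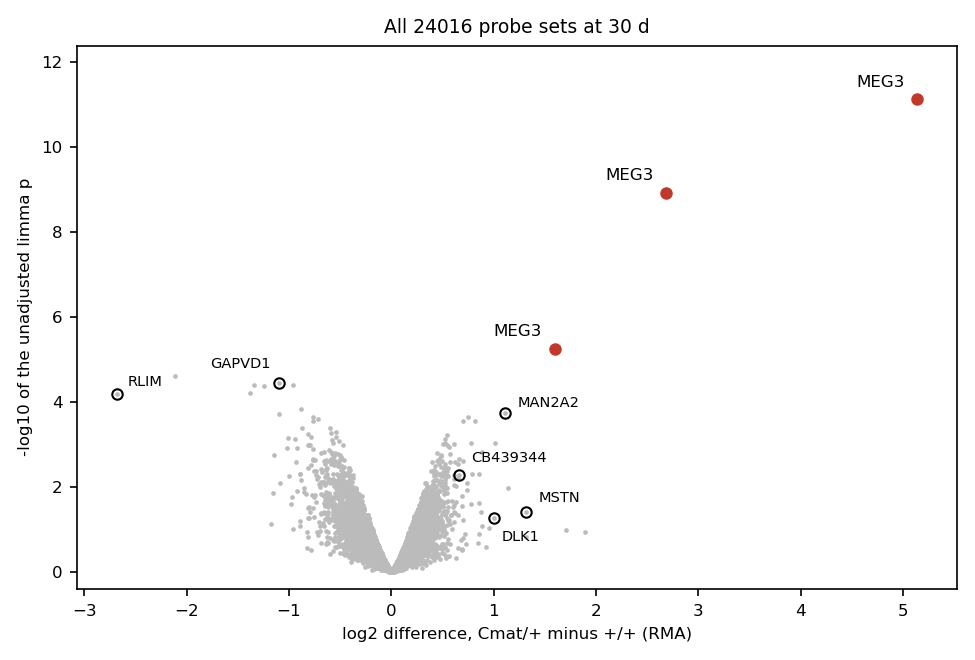
Each point is 1 of the 24016 probe sets, placed by its log2 difference, Cmat/+ minus +/+, and by -log10 of its unadjusted limma p. The 3 filled red points are the called probe sets, all for MEG3, and open circles mark other transcripts named in the text, none of which was called.

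MEG3 (also named GTL2) is the long RNA transcribed from the maternal chromosome beside the mutation. Its probe set with the largest difference, Bt.12510.1.S1_at, gave 12.50, 12.30 and 12.44 in the 3 Cmat/+ lambs and 7.62 and 6.94 in the +/+ lambs. The groups were far apart, with the lowest Cmat/+ lamb more than 4 log2 units above the highest +/+ lamb. The mean was 12.42 ± 0.10 (SD, n = 3) in Cmat/+ and 7.28 ± 0.48 (SD, n = 2) in +/+ muscle, a rise of 5.14 ± 0.17 (SE), which is 35.2-fold (limma adjusted p = 1.75e-07). The deposited MAS5 intensities of the same arrays were 3707.8, 3721.5 and 4538.2 in Cmat/+ lambs and 133.2 and 103.1 in +/+ lambs.

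The second called probe set of MEG3, Bt.12510.1.S1_a_at, was at 9.87, 9.78 and 9.85 in Cmat/+ lambs and at 7.32 and 6.96 in +/+ lambs. The groups did not overlap, and the rise was 2.69 ± 0.15 (SE), or 6.45-fold (limma adjusted p = 1.39e-05). The third, Bt.1421.1.S1_at, was at 8.50, 8.89 and 8.58 in Cmat/+ lambs and at 7.28 and 6.84 in +/+ lambs. It too was higher in every Cmat/+ lamb, by 1.60 ± 0.20 (SE), or 3.02-fold (limma adjusted p = 0.0446). The call of the third probe set was lost when only the 5 arrays of the comparison were fitted (adjusted p = 0.133), on MAS5 values (0.151), and when any 1 of the 5 lambs was left out (0.116 to 0.454), whereas the first and the second were called under all 16 alternatives.

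The remaining pair of MEG3 probe sets showed less. Bt.12510.3.S1_at was at 6.17, 6.34 and 6.22 in Cmat/+ lambs and 5.75 and 5.43 in +/+ lambs, a difference of 0.65 ± 0.19 (SE) that did not pass the test (limma adjusted p = 0.836), although the groups did not overlap. Bt.12510.2.S1_at overlapped between the groups (difference 0.14 ± 0.17 SE). So the size of the MEG3 difference depended on the probe set, from 0.14 to 5.14 on the log2 scale over the 5 probe sets, with the direction the same in each.

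The other genotypes give the setting of the Cmat/+ level. For Bt.12510.1.S1_at the 3 C/C lambs, which also carry the maternal allele, were at 12.14, 12.27 and 12.31, and the +/Cpat lambs, which do not, were at 9.63 and 9.65. All 6 carriers of a maternal callipyge allele thus lay above 12, and the +/Cpat lambs lay between them and the +/+ lambs. The order of the group means was Cmat/+, C/C, +/Cpat and +/+, and the first pair, at 12.42 and 12.24, were closer to each other than to any other group. For Bt.12510.1.S1_a_at the +/Cpat lambs, at 7.73 and 7.44, stood near the +/+ lambs instead, and for Bt.1421.1.S1_at, at 7.25 and 7.23, they lay within the +/+ range. The difference C/C minus +/Cpat, which uses none of the Cmat/+ and +/+ arrays, was 2.59, 2.04 and 1.5 for the 3 probe sets in the same order.

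**Figure D2:**
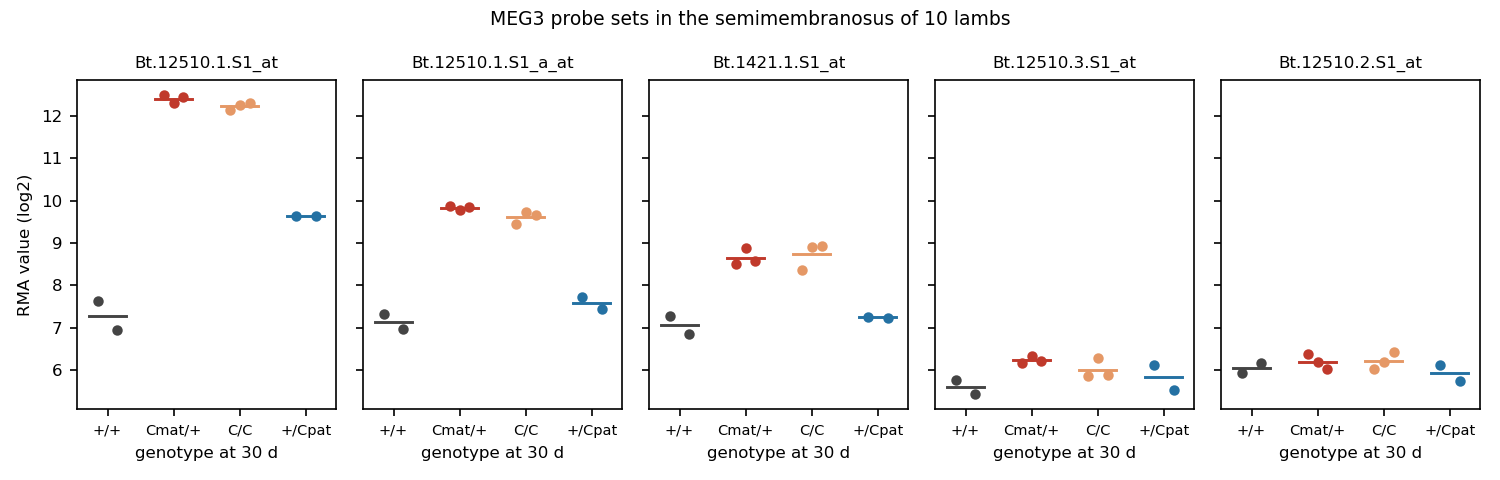
RMA values (log2) of the MEG3 probe sets in the 10 lambs at 30 d, by genotype; points are lambs and bars are group means. In the 3 called probe sets every Cmat/+ and C/C lamb lies above every +/+ and +/Cpat lamb.

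The other transcripts of the domain were dim or did not pass the test. CB439344 is the study's name for a transcript of the region, taken here from its tables because the platform annotation has no symbol for the probe set. To identify it, the primers that the study designed for its quantitative PCR are given 5′ to 3′, without capitals since no part of them is singled out.
CB439344 forward: cactgaaaagcacgtgccttct
CB439344 reverse: gatttagcatctgccatggacaa
The CB439344 probe set was at 3.71, 4.01 and 3.56 in Cmat/+ lambs and at 3.19 and 3.02 in +/+ lambs. Every Cmat/+ lamb was higher, by 0.66 ± 0.19 (SE), but the difference did not pass the test (limma adjusted p = 0.785). Its mean over the 10 arrays exceeded that of only 13% of probe sets, so the transcript was read near the bottom of the scale. On MAS5 intensities, which were 12, 19.2 and 21.1 in Cmat/+ lambs against 0.8 and 0.3 in +/+ lambs, the same fit gave 2.73 and a call (limma adjusted p = 0.0699), 1 of 5 calls on MAS5 values (0.0208%). In the C/C lambs the RMA values were 3.22, 3.89 and 3.61, and in the +/Cpat lambs 3.04 and 3.12, so carriers of the maternal allele were again the higher lambs. In this fit the call was made on MAS5 values and not on RMA values. The study, which read its arrays by RMA and fitted another model, reported this probe set for the same comparison.

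MEG8, another maternally expressed long RNA, was at 3.21, 3.75 and 3.09 in Cmat/+ lambs and 3.19 and 2.94 in +/+ lambs. The groups overlapped (difference 0.28 ± 0.19 SE, with a 95% interval of -0.15 to 0.71), the difference was 0.082 without Cmat/+ lamb 2 and 0.16 without +/+ lamb 2, and its mean exceeded that of only 7.32% of probe sets. On MAS5 values the difference was 1.14, which did not pass the test either (limma adjusted p = 0.935). RTL1, DIO3 and BEGAIN had no probe set named for them here.

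DLK1, a transmembrane protein expressed from the paternal chromosome, did not pass the test. Its main probe set was at 9.56, 9.21 and 11.02 in Cmat/+ lambs and at 9.39 and 8.47 in +/+ lambs. Cmat/+ lambs 1 and 2 lay near the higher +/+ lamb, the lamb labelled Cmat/+ lamb 3 lay well above them, and the groups overlapped. The difference was 1.00 ± 0.46 (SE), with an interval of -0.02 to 2.02 (limma adjusted p = 0.954), and it was 0.45 without Cmat/+ lamb 3 and 0.54 without +/+ lamb 2. For reference, the +/Cpat lambs were at 11.88 and 11.40 and the C/C lambs at 10.44, 9.70 and 10.39, so that Cmat/+ lamb 3 was above the C/C lambs and below the +/Cpat lambs. A second DLK1 probe set differed by 0.05 ± 0.28 (SE).

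**Figure D3:**
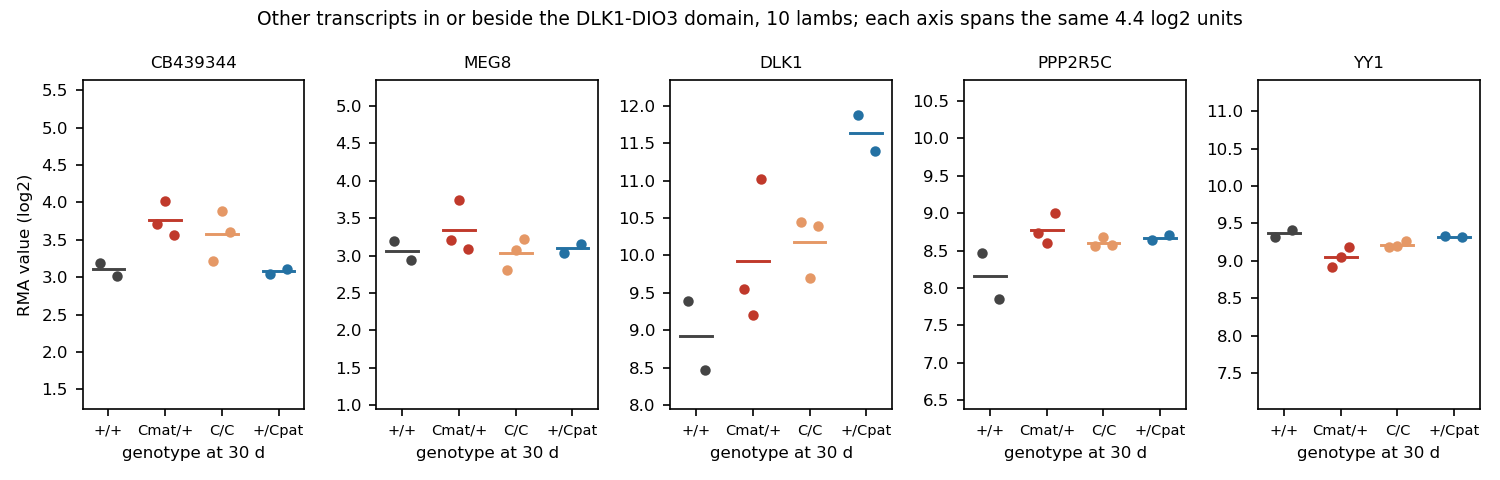
RMA values (log2) of CB439344, MEG8, DLK1, PPP2R5C and YY1 in the 10 lambs at 30 d, by genotype, with group means as bars and axes of equal length. CB439344 is higher in every Cmat/+ lamb than in either +/+ lamb, and the DLK1 value of 11.02 in Cmat/+ lamb 3 lies apart from the other Cmat/+ lambs.

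Genes beside the domain were taken by their order in the sheep assembly. Of the 30 protein-coding genes nearest to MEG3, 15 on each side, 13 had a probe set, 0 were called and 10 were above 0, with a median of 0.12 and a range of -0.31 to 1.00 (DLK1). In 4 of the 13 all Cmat/+ lambs were higher and in 1 all were lower, against 11.3% and 9.82% of all 9227 genes with 1 probe set each. PPP2R5C, a regulatory subunit of protein phosphatase 2A, was at 8.73, 8.60 and 9.0 in Cmat/+ lambs and 8.47 and 7.85 in +/+ lambs (difference 0.62 ± 0.18 SE, limma adjusted p = 0.785). The difference was 0.31 without +/+ lamb 2 and 0.93 without +/+ lamb 1. The +/Cpat lambs, at 8.64 to 8.70, and the C/C lambs, at 8.56 to 8.68, were near the Cmat/+ level of PPP2R5C. CINP, a cyclin-dependent kinase 2 interacting protein, differed by 0.53 ± 0.14 (SE, limma adjusted p = 0.767). YY1, a zinc finger transcription factor, was the lower one, at 8.92, 9.05 and 9.18 against 9.32 and 9.41 (difference -0.31 ± 0.11 SE, limma adjusted p = 0.954), and its other probe sets gave -0.33 and -0.11. None of these genes passed the test.

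On RMA values, the fits made here called none of the transcripts that the study followed by quantitative PCR for the maternal allele except MEG3. CB439344 was called on MAS5 values alone. By the study's own PCR over several ages, MEG8 and CB439344 were higher in lambs with a maternal callipyge allele. The array read both near the bottom of its scale, so a missing call does not show that they were unchanged. PARK7, a protein of the oxidative stress response, was at 11.10, 11.10 and 11.16 in Cmat/+ lambs, at 11.01 and 10.78 in +/+ lambs and at 12.26 and 12.19 in +/Cpat lambs. The Cmat/+ values were therefore close to the normal ones (difference 0.23 ± 0.11 SE). TCEA3, a transcription elongation factor, differed by 0.20 ± 0.12 (SE), PRPF3, a splicing factor, by 0.14 ± 0.10 (SE), and PHKA2, a subunit of phosphorylase kinase, by 0.28 ± 0.13 (SE). The study names its transcript only as PHKA, and whether PHKA2 is the one that it followed was not tested. SEPHS2, an enzyme of selenium metabolism, differed by 0.00 ± 0.12 (SE), and EIF4A3, an RNA helicase of the exon junction complex, by -0.04 and -0.09 in its probe sets. RPLP0, a ribosomal protein, gave 0.16, 0.07 and -0.06, and SP140 had no probe set named for it here.

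After MEG3, the smallest adjusted p was 0.128. By rule, the 17 probe sets with a single gene symbol and the next smallest p were taken, and 13 of them were lower and 4 higher in Cmat/+ lambs, with adjusted p from 0.128 to 0.576. The groups overlapped in none of the 17, which their small p already implies in large part. The MAS5 difference, from the same scans, had the same direction in all 17, which their choice by small p also implies in large part. The share over all probe sets, 68.8%, is not one of probe sets chosen in that way. The difference C/C minus +/Cpat, made with other lambs, had the same direction in 15 of the 17, against 57.2% of all probe sets and 71.0% of the 1225 at an unadjusted p under 0.05. Cmat/+ minus +/+ and C/C minus +/Cpat both set the added arrays against arrays that had already been obtained.

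RLIM, an X-linked ubiquitin ligase known for its role in X inactivation, had the largest difference of these. It was at 4.57, 6.70 and 5.50 in Cmat/+ lambs and at 8.24 and 8.30 in +/+ lambs. All 3 Cmat/+ lambs were low but spread over more than 2 log2 units, while the +/Cpat lambs (8.20 and 8.42) and the C/C lambs (8.29, 8.35 and 8.16) were level with the +/+ lambs. The difference was -2.68 ± 0.43 (SE, limma adjusted p = 0.158), and it was called without Cmat/+ lamb 2 (-3.23, adjusted p = 0.00118), with all 22 arrays in the fit (adjusted p = 0.0346) and with array weights (adjusted p = 0.0322). Low values of this probe set were also found in the +/+ lambs at 10 d, at 5.39 and 6.96, which lack the mutation.

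GAPVD1, a protein of endosomal trafficking, was at 5.44, 5.26 and 5.36 in Cmat/+ lambs and at 6.48 and 6.41 in +/+ lambs. The difference was -1.09 ± 0.16 (SE, limma adjusted p = 0.128), the C/C lambs were at 5.47, 5.35 and 5.51, and a second probe set of the gene differed by -0.07. EIF4E3, a cap-binding protein of translation, was lower in both of its probe sets, by 0.88 and 0.76 on the log2 scale. The first of these was at 5.43, 5.43 and 5.48 in Cmat/+ lambs against 6.25 and 6.40 in +/+ lambs (limma adjusted p = 0.312). CLIC4, a chloride intracellular channel protein, was at 7.63, 7.41 and 7.52 in Cmat/+ lambs against 8.60 and 8.63 in +/+ lambs. The difference was -1.09 ± 0.20 (SE, limma adjusted p = 0.346), and all Cmat/+ lambs were lower in each of the 4 CLIC4 probe sets. In +/+ lambs of other ages the first CLIC4 probe set was near the Cmat/+ level. It was at 7.49 to 7.80 at 10 d, 7.36 to 7.76 at 20 d and 7.35 to 7.49 at 80 d. For GAPVD1 and both EIF4E3 probe sets, the +/+ lambs of those ages lay between the Cmat/+ lambs and the +/+ lambs compared here. The part of age in these differences was not tested.

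Of the other lower probe sets, PLS3, an actin-bundling protein, differed by -0.77, and HDGFL3, a growth factor-like protein, by -0.87. RIT1, a small GTPase of the Ras family, differed by -0.79, and FNBP1L, a protein of membrane curvature and actin assembly, by -0.59. BLOC1S4, a subunit of a complex of lysosome-related organelles, differed by -0.54 and DENND10 by -0.51. BZW1 differed by -0.59 in the named probe set but by 0.02 in another.

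MAN2A2, a mannosidase of N-glycan processing in the Golgi, was the highest of the 4 higher probe sets. It was at 6.43, 6.63 and 7.05 in Cmat/+ lambs and at 5.60 and 5.58 in +/+ lambs, with the C/C lambs at 6.93, 6.65 and 6.74 and the +/Cpat lambs at 5.47 and 6.04. All carriers of the maternal allele were thus above the other lambs, with a difference Cmat/+ minus +/+ of 1.11 ± 0.20 (SE, limma adjusted p = 0.346), but a second probe set of MAN2A2 differed by -0.14 with overlapping groups. LOC789894 differed by 0.75, VTI1B, a SNARE protein of vesicle fusion, by 0.55, and RPS27L, a ribosomal protein-like gene, by 0.53. For LOC789894 the +/Cpat lambs at 30 d, at 8.57 to 8.69, were as high as the Cmat/+ lambs, at 8.19 to 8.66. Its higher level was thus not limited to carriers of the maternal allele. A second probe set of RPS27L differed by -0.71 with overlapping groups. No probe set of these genes was called.

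**Figure D4:**
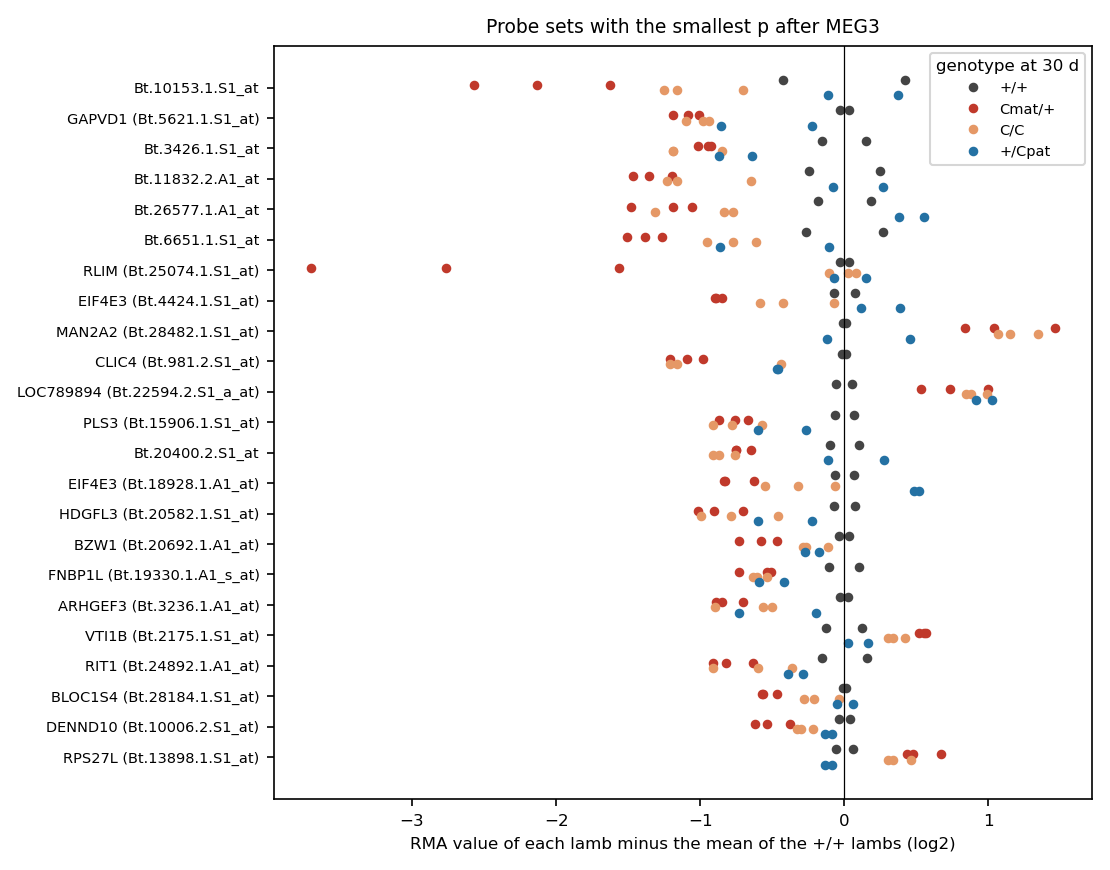
For the probe sets with the smallest p after MEG3, with or without a gene symbol, each point is the RMA value of 1 lamb at 30 d minus the mean of the 2 +/+ lambs (log2), coloured by genotype. The 3 Cmat/+ lambs lie on 1 side of both +/+ lambs in every row, farthest for RLIM, where the C/C and +/Cpat lambs stay near 0.

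Probe sets without a gene symbol were also near the threshold. Bt.10153.1.S1_at was at 5.93, 5.50 and 6.44 in Cmat/+ lambs and at 7.64 and 8.49 in +/+ lambs, a difference of -2.11 ± 0.30 (SE, limma adjusted p = 0.128). Bt.11832.2.A1_at was at 6.73, 6.84 and 7.0 against 8.44 and 7.95 (difference -1.34 ± 0.20 SE, limma adjusted p = 0.128). Both were lower in every Cmat/+ lamb, and both were called with all 22 arrays in the fit (adjusted p = 0.0346 for each).

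By size, a difference of 1 or more without overlap was found in 7 higher probe sets (0.0291%) and in 11 lower ones (0.0458%). Among the brighter probe sets with a single symbol and no overlap, the largest difference after MEG3 on the higher side was that of MSTN, myostatin, the secreted inhibitor of muscle growth. MSTN was at 8.29, 7.25 and 6.61 in Cmat/+ lambs and at 6.47 and 5.66 in +/+ lambs. The Cmat/+ lambs spread over a wider range than the difference between the groups (difference 1.32 ± 0.56 SE, limma adjusted p = 0.954), the +/Cpat lambs were at 5.95 and 7.66, and the groups of a second MSTN probe set overlapped. Without Cmat/+ lamb 1 the difference was 0.87.

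FBXW7, a substrate receptor of an SCF ubiquitin ligase, differed by 1.14 ± 0.37 (SE), and PITX1, a homeobox factor of the hind limb, by 0.88 ± 0.37 (SE). The FBXW7 difference was 0.73 without +/+ lamb 2, and that of PITX1 was 0.47 without Cmat/+ lamb 3 and 0.53 without +/+ lamb 1. AGPAT5, an enzyme of glycerolipid synthesis, differed by 0.79 ± 0.22 (SE), and 4 of its 5 probe sets were higher in every Cmat/+ lamb. PFKFB1, an enzyme that sets the level of fructose 2,6-bisphosphate in glycolysis, was at 8.64, 8.18 and 8.65 in Cmat/+ lambs against 7.90 and 7.30 in +/+ lambs (difference 0.89, and 0.59 without +/+ lamb 2, limma adjusted p = 0.699). KCNN3, a calcium-activated potassium channel that is high in callipyge muscle, was at 7.78, 6.90 and 7.80 in Cmat/+ lambs against 6.63 and 6.65 in +/+ lambs and 7.76 and 8.05 in +/Cpat lambs (difference 0.85 ± 0.24 SE, limma adjusted p = 0.785). Cmat/+ lambs 1 and 3 were thus at the callipyge level of KCNN3 and lamb 2 near the normal one.

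On the lower side, MUSTN1, a small nuclear protein of muscle and bone, was at 11.05, 11.40 and 11.54 in Cmat/+ lambs and at 12.37 and 12.32 in +/+ lambs. The difference was -1.02 ± 0.24 (SE, limma adjusted p = 0.636), and -0.89 in its second probe set, while another differed by -0.25 with overlapping groups. NTN4, a netrin of basement membranes, differed by -0.98, ASS1, the argininosuccinate synthase of the urea cycle, by -0.92, SH3BGRL by -0.89, and PLK2, a kinase induced by p53, by -0.88. None passed the test, with adjusted p from 0.785 to 0.954.

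In 39 gene lists with 698 measured genes, each read by its brightest probe set, 1 gene was called, MEG3 itself. At an unadjusted p under 0.05 there were 50 of the 698 (7.16%), against 5.62% of all 9227 genes. The lists are described by their medians and by the number of members whose groups did not overlap, against 11.3% higher and 9.82% lower among all genes, of which 53.0% were above 0. No test of a list against the other genes was made.

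The markers of endothelium, the cells that line blood vessels, had the lowest median of the 39 lists, -0.32 over 16 genes. All 16 were below 0, and 9 of them (56.2%) were lower in every Cmat/+ lamb. TEK, the angiopoietin receptor, differed by -0.63 ± 0.17 (SE, limma adjusted p = 0.785), SOX18, a transcription factor of vessels, by -0.52, and ENG, a coreceptor of TGF-beta, by -0.34, and these 3 had an unadjusted p under 0.05 on the lower side, against 2.89% of all genes. The mean level of the list was 7.05, 7.21 and 6.98 in Cmat/+ lambs and 7.41 and 7.32 in +/+ lambs, so the groups did not overlap. It was 7.12, 6.78 and 7.19 in C/C lambs and 7.32 and 6.89 in +/Cpat lambs, which did overlap. The median was -0.45 on MAS5 values and -0.22 to -0.44 when any 1 lamb was left out. The counts were less uniform there. On MAS5 values 2 of the 16 were above 0, 7 were lower in every Cmat/+ lamb and 1 was higher in every one. When any 1 lamb was left out, 1 to 3 of the 16 were above 0. In whole muscle, fewer cells of a type and less RNA per cell cannot be told apart.

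Genes of the cytosolic ribosome lay on the other side. Of 33 ribosomal protein genes 28 were above 0, 16 (48.5%) were higher in every Cmat/+ lamb and 0 were lower in every one, and the median was 0.15. RPS3, a protein of the small subunit, was at 12.41, 12.41 and 12.42 in Cmat/+ lambs and at 11.99 and 11.84 in +/+ lambs (difference 0.49 ± 0.13 SE, limma adjusted p = 0.705). RPL8 differed by 0.39, RPL11 by 0.30 and RPS6 by 0.30, and 7 of the 33 had an unadjusted p under 0.05 on the higher side, against 2.73% of all genes. The mean level of the list was 11.85, 11.78 and 11.85 in Cmat/+, 11.87, 11.89 and 11.70 in C/C, 11.65 and 11.70 in +/+, and 11.54 and 11.36 in +/Cpat lambs. All 3 Cmat/+ lambs lay above the +/+ lambs, and the C/C lambs were all at or above the +/+ level and above the +/Cpat lambs. These 6 arrays are also those added to arrays already obtained. The part of a separate round of hybridization, if there was one, in the ribosomal difference cannot be told apart from the allele.

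Genes of glycogen and glycolysis had medians above 0. In the glycogen list, the median of 9 genes was 0.28, with 4 higher in every Cmat/+ lamb, among them GYS1, the muscle glycogen synthase (0.38 ± 0.17 SE), and PHKG2, a catalytic subunit of phosphorylase kinase (0.32 ± 0.14 SE). This median was 0.088 without +/+ lamb 2. The mean level of the glycogen list was 8.57 to 8.66 in Cmat/+, 8.35 to 8.54 in +/+ and 8.61 to 8.68 in +/Cpat lambs. The +/Cpat lambs, which lack the maternal allele, were thus level with the Cmat/+ lambs. For C/C minus +/Cpat the median of the list was -0.013. Of 23 glycolysis genes 7 were higher in every Cmat/+ lamb and 0 lower. Their median was 0.059, and it was 0.15 without +/+ lamb 1 and 0.11 without Cmat/+ lamb 3. The mean glycolysis level was 10.26 to 10.40 in Cmat/+, 10.21 to 10.28 in +/+ and 10.38 in both +/Cpat lambs. For C/C minus +/Cpat the glycolysis median was -0.033. The lists of the TCA cycle (0.0085), the electron transport chain (0.011) and fatty acid oxidation (0.027) had medians near that of all genes, 0.012.

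The medians of contractile and growth pathways were small. The median was 0.0020 for fast fibre proteins (13 genes), -0.060 for slow fibre proteins (13 genes) and -0.026 for the striated muscle markers (13 genes). Of the striated muscle markers 3 (23.1%) were lower in every Cmat/+ lamb and 0 higher, against 9.82% and 11.3% of all genes. For fast fibre proteins these counts were 3 and 2. The list of myostatin, activin and BMP signalling, 22 genes with a median of -0.11 (-0.064 without Cmat/+ lamb 1), held members on both sides. FST, follistatin, a secreted antagonist of myostatin, differed by 0.54 ± 0.20 (SE) and SMAD4, the common partner of the SMAD proteins, by -0.59 ± 0.15 (SE, limma adjusted p = 0.705). The list of insulin, IGF, AKT and mTOR signalling had a median of 0.00075 over 25 genes. In the list of imprinted genes, 25 measured with MEG3 and DLK1 among them, MEG3 was the only one called, and the others included IGF2R, the receptor that clears IGF2 (0.41 ± 0.18 SE), and SGCE, epsilon-sarcoglycan (-0.38 ± 0.15 SE).

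Lists chosen for known functions of long and small RNAs of the domain showed no called gene. Among 18 genes of C/D snoRNA and rRNA processing 15 were above 0 (median 0.11, and 0.071 without Cmat/+ lamb 1), with FBL, the methyltransferase of these particles, at 0.27 ± 0.19 (SE). The 18 polycomb and other chromatin repressors had a median of 0.060 (0.033 without Cmat/+ lamb 3), with EED, a core subunit of PRC2, at 0.51 ± 0.17 (SE, limma adjusted p = 0.929). The 10 genes of small RNA processing had a median of 0.082 (0.048 without Cmat/+ lamb 3 and 0.16 without +/+ lamb 1), with TNRC6B, a partner of Argonaute proteins, at 0.48 ± 0.12 (SE, limma adjusted p = 0.705). The 13 p53 targets had a median of -0.12 on RMA values and of 0.024 on quantile normalized MAS5 values. The 13 lists not described otherwise had medians between -0.091 for atrophy, proteasome and autophagy and 0.049 for translation initiation and elongation.

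Markers of other cell types bear on what the muscle pieces held. The median was -0.12 for fibroblasts and connective tissue, with 4 of 22 genes above 0, -0.20 for erythroid cells (9 genes), -0.10 for smooth muscle and pericytes (11 genes), 0.042 for adipocytes (16 genes), -0.025 for leukocytes (26 genes) and 0.058 for satellite cells (6 genes). The connective tissue level was 8.54, 8.49 and 8.10 in Cmat/+ lambs and 8.66 and 8.36 in +/+ lambs, which overlapped. The median of this list was 0.044 without Cmat/+ lamb 3, 0.022 without +/+ lamb 1 and -0.30 without +/+ lamb 2, and 9 of its 22 genes were above 0 on MAS5 values. The part of these cell types in the endothelial and other differences was not tested. Of the immediate early genes, which respond to handling of tissue within minutes, 15 of 19 were above 0 (median 0.23), with FOS at 7.13, 11.26 and 9.82 in Cmat/+ lambs and at 7.5 and 7.53 in +/+ lambs, so the Cmat/+ lambs lay on both sides. The median of this list was 0.084 without Cmat/+ lamb 2 and 0.15 without +/+ lamb 1, and 12 of the 19 were above 0 on MAS5 values.

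**Figure D5:**
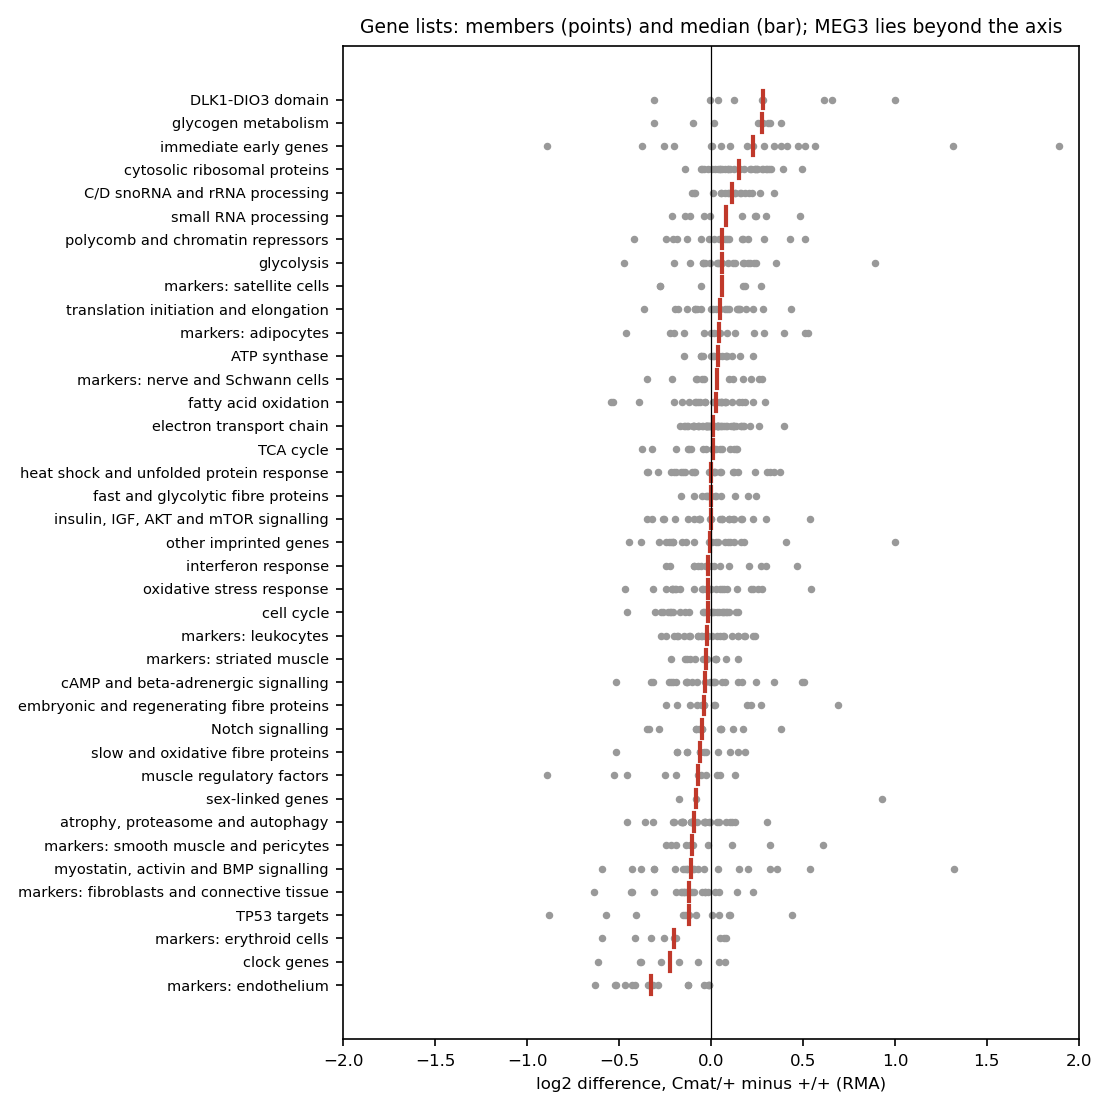
Log2 differences, Cmat/+ minus +/+, of the members of each gene list (points, 1 brightest probe set for each gene) with the median of the list as a bar; MEG3, at 5.14, lies beyond the axis. Endothelium has the lowest median (-0.32), with no member above 0.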

How the data were processed

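Semimembranosus RNA of 22 lambs had been hybridized to 1 bovine array each. The submitters' processing notes name GCOS, MAS5 and RMA, without versions. The authors deposited MAS5 intensity values on a linear scale, not scaled between arrays, and RMA values on a log2 scale, which are background corrected, quantile normalized and summarized over the probes of a probe set, so that a shift common to most probe sets would be removed. Columns were assigned to lambs from the labels. Arrays give no counts, so the number of lambs limits the precision.

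The RMA values were fitted with limma 3.58.1 in R 4.3.3, with a mean for each of the 4 genotypes over the 10 arrays at 30 d, and p-values were adjusted over 24016 probe sets by the Benjamini and Hochberg method. The steps were tested on simulated data. For a check, MAS5 values were scaled to a trimmed mean of 500 (2% trimmed at each end), raised by 16 and put on the log2 scale. Other alternatives were other variance models, array sets, filters, normalizations and weights, the replicate number as a block, and leaving out each lamb.

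Gene symbols came from the platform annotation (13292 probe sets with 1 symbol, 86 with several, 10638 with none listed) and 95 from tables of the study. Named were the called probe sets, those with the next smallest p up to 20 in all, up to 10 with the largest difference each way among the brighter ones without overlap, transcripts of the domain and of the study's PCR, and up to 4 with the smallest p of each list. Of these, 1 probe set is not reported here. Probe sets without a symbol, CINP and FOS were chosen after their values were seen. The members and lists were chosen with earlier results of these data known. Columns of the authors' own comparisons were not used.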

Additional observations from a re-analysis of the deposited data

How the results depend on the processing

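The 3 calls became 2 (MEG3 only) when each probe set had its own variance and with only the 5 arrays of the comparison. They became 6 with all 22 arrays in the fit (3 higher and 3 lower, with RLIM and a pair of probe sets without a symbol added), 7 with array weights (3 higher and 4 lower), and 5 on MAS5 values, both scaled to a trimmed mean and quantile normalized, where CB439344 and 2 probe sets without a symbol were called. On both kinds of MAS5 values the called genes in the lists were 2 in place of 1, MEG3 and CB439344. When 1 lamb was left out the calls were 2 to 3. The called list genes stayed at 1, and the third probe set of MEG3 was lost each time. RLIM was gained without Cmat/+ lamb 2 and Bt.10153.1.S1_at without Cmat/+ lamb 3. The median of the p53 targets turned from -0.12 to 0.024 on quantile normalized MAS5 values. On MAS5 values scaled to a trimmed mean the differences of the first EIF4E3 probe set (-0.44), ASS1 (-0.58) and KCNN3 (0.54) were smaller and that of MAN2A2 (1.71) larger by over 1.5 times. The reasons for these changes were not tested. Over all alternatives the difference of MEG3 stayed between 4.80 and 5.48 for Bt.12510.1.S1_at (largest adjusted p 0.00462) and between 2.51 and 2.89 for Bt.12510.1.S1_a_at (largest adjusted p 0.0417). Counted over pairs of a named probe set and an alternative, 603 differences kept their direction and their side of the threshold. Of the others 8 gained and 10 lost a call, and 0 turned. Alternatives that changed only the variance model, the arrays of other groups or the threshold left every difference as it was, so none could turn there. Of the list medians, counted in the same way and with the same limit, 584 moved by less than the spread or not at all. A further 38 moved by more, and 1 of a size over 0.1 turned by more than the spread. Medians nearer to 0 also changed sign. The heat shock list kept its sign in 7 of 16 alternatives, oxidative stress in 10, the TCA cycle in 12 and Notch signalling in 13, so the direction of such medians was not stable.

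Same-numbered lambs showed no strong shared deviation (r from -0.259 to 0.197 over 13 pairs, 5 of them above 0.1). Deviations were taken from group means, so the pairs are not independent of each other. Whether same-numbered lambs shared a dam or a day of processing was not tested. With the replicate number as a block, 2 probe sets were called, both MEG3. Where a group kept 1 lamb, it was assumed to vary like the others. Arrays bound what can be seen of dim transcripts such as MEG8 and CB439344, whose signal was near the bottom of the scale.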

Other observations

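MEG3 was also measured at the other ages in +/+ and +/Cpat lambs. No source used here tells whether RMA was run on all ages at once. For Bt.12510.1.S1_at the +/+ lambs were between 7.43 and 9.35 at 10 d, between 8.03 and 8.54 at 20 d and between 6.56 and 7.69 at 80 d. The +/Cpat lambs were between 10.09 and 10.90 at 10 d, between 10.90 and 11.22 at 20 d and between 10.52 and 10.56 at 80 d. The Cmat/+ lambs at 30 d, with 12.30 to 12.50, lay above all of these values. For Bt.12510.1.S1_a_at too the +/Cpat lambs lay above the +/+ lambs at these ages. They were at 8.49 to 8.60 against 7.71 to 8.08 at 10 d and at 8.91 to 9.11 against 7.34 to 7.78 at 20 d. At 80 d they were at 8.96 to 9.01 against 7.78 in both +/+ lambs. For Bt.1421.1.S1_at the genotypes overlapped at 10 and 80 d.

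XIST, the long RNA of the inactive X chromosome, was at 5.82, 7.96 and 5.31 in Cmat/+ lambs and at 5.50 and 5.37 in +/+ lambs for Bt.11847.1.A1_at. Cmat/+ lamb 2 was the highest of the 5 for XIST and also for RLIM among the Cmat/+ lambs. The +/Cpat lambs at 30 d were at 6.97 to 7.69 for this XIST probe set, above both +/+ lambs. Their RLIM values, 8.20 to 8.42, were nevertheless level with those of the +/+ lambs, 8.24 to 8.30. Whether the genotypes differed in the sex of the lambs was not tested. CNN1, a calponin of smooth muscle, differed by 0.61 ± 0.14 (SE, limma adjusted p = 0.576), and LEP, the hormone leptin of adipocytes, by 0.53 ± 0.14 (SE, limma adjusted p = 0.717), both with the groups apart, while 8 of the 11 smooth muscle markers were below 0 (median -0.10). CHRND, a subunit of the muscle acetylcholine receptor, was at 6.84, 6.80 and 6.88 in Cmat/+ lambs and at 5.98 and 6.32 in +/+ lambs (difference 0.69 ± 0.24 SE, limma adjusted p = 0.954). The 8 clock genes measured had a median of -0.22, with 2 of them above 0. This median was -0.12 without Cmat/+ lamb 1, -0.13 without +/+ lamb 1 and -0.30 without +/+ lamb 2.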
